A study of Mus musculus with 7 samples.

Results

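The proneural basic helix-loop-helix (bHLH) genes examined were Neurog1, Neurog2, Neurog3, Neurod1, Neurod4, Neurod6, Olig3, Atoh1 and Ptf1a, taken by symbol from the deposited table, which held all 9 among its 25461 genes. Their RNA was measured in whole mouse embryos of the B6C3F1 strain at embryonic day 11.5, of which 3 carried the SLMAP3 knockout (KO) and 4 were wild type (WT), with 1 embryo per library and the tails removed for genotyping. The KO is global: a floxed exon of Slmap was deleted with CMV-cre in earlier generations, and cre-free heterozygotes were then crossed, so that the SLMAP3 isoform is lost and the shorter SLMAP1 and SLMAP2 isoforms are kept. The labels do not say whether the neural tube of a sequenced embryo was open or closed. The comparison asked how these neurogenic factors stood when the neural tube developed without SLMAP3.

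Proneural factors bind DNA at E-boxes, the motif CANNTG, as dimers with the broadly expressed E-proteins, and they drive neural progenitors out of the cell cycle into neuronal differentiation. They also switch on Notch ligands, through which a differentiating cell holds its neighbors as progenitors by way of Hes repressors. The neurogenins and Atoh1 act in progenitors or newly born neurons, each in its own domain, the NeuroD factors follow in differentiating neurons, and Olig3 and Ptf1a set the identity of dorsal neuron classes.

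In KO embryos Olig3 averaged 164% of the WT level. It was the one gene of the 9 whose KO values all lay above all WT values, a separation that 5.61% of all genes tested showed. Neurod6 averaged 28.0% of WT and varied widely in both groups. Of the 8 genes that could be tested, 7 had a higher mean on the log2 scale in KO embryos and 1, Neurod6, a lower one. Of all genes tested, 8554 of 16095 had a higher mean in KO embryos. None of the 8 passed an adjusted p of 0.05 in limma, a limit that 0.0373% of all genes tested passed. The median difference was 0.38 for 7 neural progenitor markers, 0.18 for 9 inhibitors of bHLH factors and -0.11 for 14 neuronal genes, and no gene of these lists passed adjustment either. Over all genes tested the median was 0.01.

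Levels are given in FPKM (fragments mapped per kilobase of a transcript, after scaling for depth), and differences as KO minus WT of log2(FPKM + 1), a scale that understates changes of genes near or under 1 FPKM. Sequencing depth, estimated from the steps between low values, came to between 54300000 and 81900000 counts on genes per embryo. Slmap itself lay at 16.0 to 19.6 FPKM in KO and 22.8 to 31.2 FPKM in WT embryos, without overlap, although the values cover the whole gene and so do not measure the SLMAP3 isoform alone. Its difference was -0.59, with an adjusted p of 0.278 in limma. Of all genes tested, 5.98% likewise had every KO embryo below every WT embryo. Liver transcripts were near absent from 3 embryos, KO KOAC10-5 and WT KOAC10-7 and KOAC10-2, in which Afp stood at 1.30 to 5.18 FPKM against 255 to 376 in the other 4, and results are therefore also given without these 3. Since whole embryos were sequenced, fewer cells that express a gene and less RNA per cell cannot be told apart. Nothing in the labels says how litters fell across the embryos.

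All 9 are small genes, with at most 2 exons in any coding transcript, as are 15.4% of the 21866 protein-coding genes in the GRCm38 annotation. RefSeq promoter windows on GRCm38.p6, running from 250 bases before each start to 50 after it, were found for all 9. At least 1 CANNTG E-box stood in the windows of 6 of them, and 72.3% of the 32851 mouse promoters of that length also hold one, counting a palindromic motif once for both strands. CAGCTG stood in the windows of Neurog3 and Neurod4, and in 16.3% of all promoters. Neither CAGATG, the E-box that NeuroD factors prefer, nor its reverse complement CATCTG, together in 17.2% of all promoters, was found at any of the 9 genes. The 250 bases upstream of the Olig3 and Neurod6 starts are shown because these genes had the largest differences in each direction, with the E-boxes in capitals: Olig3 at chr10:19356289-19356538 on the plus strand and Neurod6 at chr6:55681264-55681513 on the minus strand.
Olig3: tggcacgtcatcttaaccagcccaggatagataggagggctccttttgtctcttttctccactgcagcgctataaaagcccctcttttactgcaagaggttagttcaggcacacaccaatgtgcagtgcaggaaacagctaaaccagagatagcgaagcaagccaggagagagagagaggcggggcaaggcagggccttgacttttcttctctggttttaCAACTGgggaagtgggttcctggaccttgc
Neurod6: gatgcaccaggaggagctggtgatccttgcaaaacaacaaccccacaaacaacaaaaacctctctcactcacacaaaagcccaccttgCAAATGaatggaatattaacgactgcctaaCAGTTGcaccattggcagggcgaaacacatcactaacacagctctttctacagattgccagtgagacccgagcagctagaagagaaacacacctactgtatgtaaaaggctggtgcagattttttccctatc
The Olig3 box CAACTG begins 30 bases before the start, and the Neurod6 boxes CAAATG and CAGTTG begin 162 and 132 bases before it. No binding was measured in these embryos, so the boxes describe the sequence and no more.

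Neurog2 was the most abundant of the 9 at a mean of 18.1 FPKM over the 7 embryos, above Neurog1 in every embryo. Neurog1 at 8.76 and Neurod1 at 7.54 FPKM were close neighbors, Neurog1 being the higher in 6 of 7 embryos. Olig3 followed at 5.77 and Neurod4 at 3.27 FPKM, each above the next gene in all 7. Atoh1 at 1.67, Neurod6 at 1.47 and Ptf1a at 1.10 FPKM kept no fixed order, since each exceeded the next in 5 of 7 embryos. Neurog3 came last at 0.813 FPKM.

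**Figure D1:**
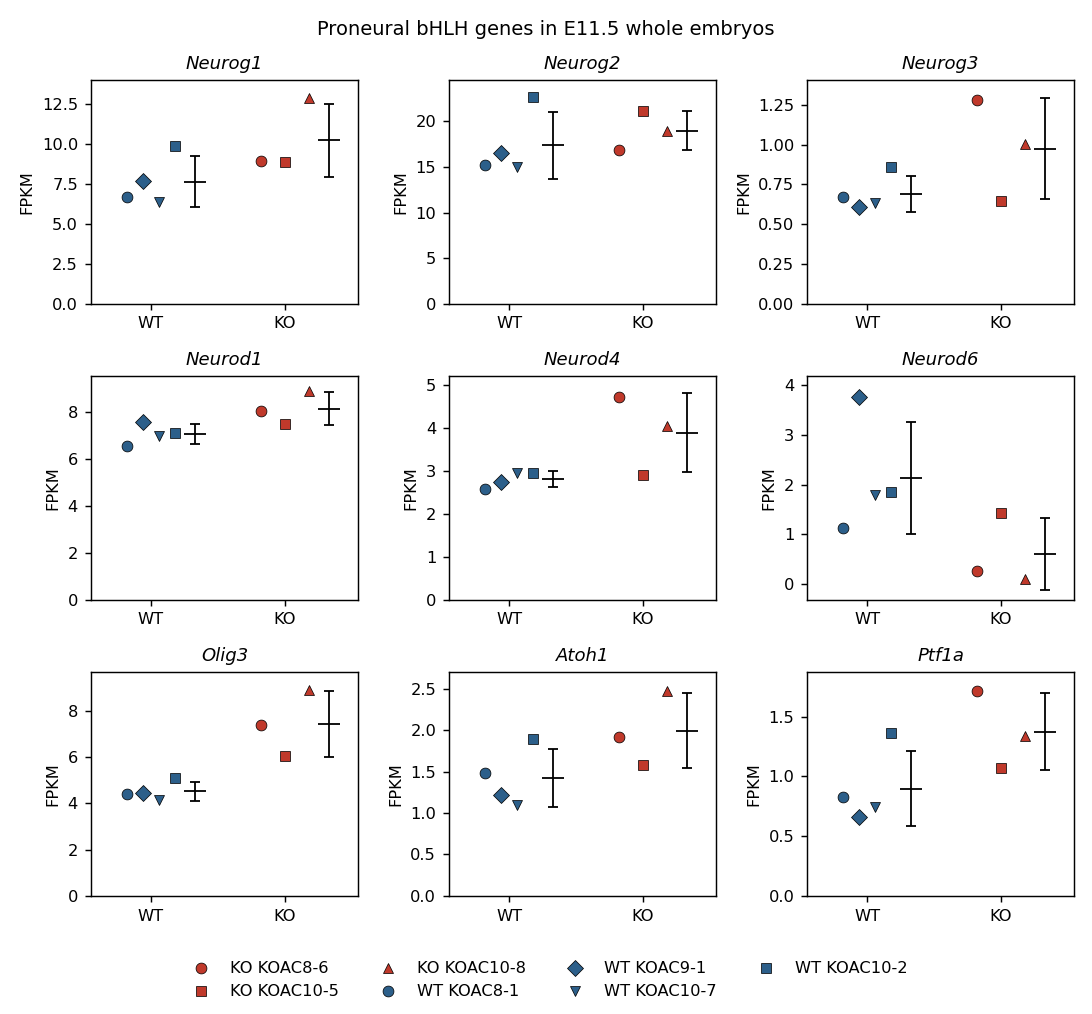
FPKM of the 9 genes in each embryo, WT in blue and KO in red, with a symbol for each embryo and the group mean with its SD beside the points. Olig3 alone has all KO points above all WT points, as have 5.61% of all genes tested, and Neurod6 has 2 of its 3 KO points under every WT point.

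Olig3 (chr10:19356533-19358604, 1 exon) is made by progenitors of the dorsal neural tube and is needed for the most dorsal neuron classes. It was measured at 7.37, 6.04 and 8.88 FPKM in KO embryos KOAC8-6, KOAC10-5 and KOAC10-8, and at 4.40, 4.44, 4.15 and 5.10 FPKM in WT embryos KOAC8-1, KOAC9-1, KOAC10-7 and KOAC10-2. The lowest KO embryo thus stood above the highest WT embryo, as was so for 5.61% of all 16095 genes tested. The means were 7.43 ± 1.42 FPKM (SD, n = 3) and 4.52 ± 0.409 (SD, n = 4). The difference was 0.60 (SE 0.12, 95% interval 0.31 to 0.89) on the log2 scale, with an adjusted p of 0.274 in limma. The exact permutation test over the 35 placements of 3 and 4 embryos gave a two-sided p = 0.0286, the smallest it can give. Within the embryos numbered KOAC8, 1 KO against 1 WT, the difference was 0.63, and within those numbered KOAC10, 2 against 2, it was 0.57. It was 0.75 in the 4 embryos with liver transcripts and 0.33 in the 3 nearly without them.

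Atoh1 and Ptf1a mark neighboring dorsal domains, Atoh1 for the excitatory neurons nearest the roof plate and the rhombic lip, and Ptf1a for inhibitory neurons, as well as the pancreas. The KO values of Atoh1 (chr6:64729125-64731245, 1 exon) were 1.92, 1.58 and 2.48 FPKM, and its WT values were 1.48, 1.22, 1.09 and 1.89 FPKM, with the embryos in the same order throughout. Ptf1a (chr2:19445663-19447501, 2 exons) stood at 1.71, 1.07 and 1.34 FPKM in KO and at 0.829, 0.660, 0.744 and 1.36 FPKM in WT embryos. In both genes the WT embryo KOAC10-2 reached into the KO range while the other 3 WT embryos lay below it. The differences were 0.31 (SE 0.15, interval -0.05 to 0.66, adjusted p = 0.482 in limma) for Atoh1 and 0.33 (SE 0.15, interval -0.03 to 0.69, adjusted p = 0.471 in limma) for Ptf1a. Exact permutation tests gave p = 0.114 for Atoh1 and p = 0.143 for Ptf1a. Without KOAC10-8 the Atoh1 difference was 0.19. Ptf1a overlaps Ptf1aos on the opposite strand, and since the library kit does not mark strand, reads of the overlapping part cannot be assigned to either.

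Neurog1 and Neurog2 are the neurogenins of cranial and spinal sensory ganglia and of ventral and intermediate neural tube. Levels of Neurog1 (chr13:56250478-56252163, 1 exon) were 8.97, 8.87 and 12.9 FPKM in KOAC8-6, KOAC10-5 and KOAC10-8, the KO embryos, against 6.66, 7.68, 6.40 and 9.88 FPKM in WT. Neurog2 (chr3:127633135-127635631, 2 exons) was at 16.8, 21.2 and 19.0 FPKM in KO and at 15.2, 16.5, 15.0 and 22.7 FPKM in WT embryos. The WT embryo KOAC10-2 had the most Neurog2 of all 7 embryos and more Neurog1 than 2 of the 3 KO embryos. The difference was 0.38 (SE 0.18, interval -0.04 to 0.79, adjusted p = 0.469 in limma) for Neurog1 and 0.14 (SE 0.15, interval -0.22 to 0.49, adjusted p = 0.747 in limma) for Neurog2. Exact permutation tests gave p = 0.143 and p = 0.457. A single embryo moved both values: without KO KOAC10-8 the Neurog1 difference was 0.21, and that of Neurog2 was 0.06 without KO KOAC10-5 and 0.27 without WT KOAC10-2.

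The ratio of Neurog1 to Neurog2 was tight in the WT embryos, between 0.427 and 0.464 in all 4. In the KO embryos it was 0.532, 0.419 and 0.679, which places KOAC8-6 and KOAC10-8 above the WT range and KOAC10-5 just below it. Both genes are given per kilobase, so the ratio compares their levels directly.

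Neurog3 (chr10:62133090-62134763, 2 exons) is best known for starting the endocrine lineage of the pancreas and is also made in small numbers of neural cells. Its KO values were 1.28, 0.646 and 1.00 FPKM, and its WT values 0.668, 0.610, 0.632 and 0.857 FPKM. KOAC10-5 fell among the WT embryos and the other 2 KO embryos lay above them. Its mean was under the 1 FPKM required for testing, and its authors' mean normalized count was 69.5. The difference was 0.21, with an exact permutation p = 0.200. Of the pancreatic endocrine genes Pax4, Ins1 and Ins2 were absent from the table, Rfx6 did not exceed 0.121 FPKM in any embryo and Pdx1, which marks the pancreatic bud, did not exceed 0.0870 and was listed at 0 in KOAC10-5. Fam241b overlaps Neurog3 on the opposite strand.

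Neurod1, Neurod4 and Neurod6 act after the neurogenins, in neurons that have begun to differentiate. Neurod1 (chr2:79452521-79456751, 2 exons) varied least of the 9, with 8.08, 7.49 and 8.90 FPKM in KO and 6.58, 7.58, 7.00 and 7.13 FPKM in WT embryos. Neurod4 (chr10:130268152-130280240, 2 exons) stood at 4.71, 2.91 and 4.05 FPKM in KO embryos and within 2.57 to 2.96 FPKM in all 4 WT embryos. In each gene 2 KO embryos lay above every WT embryo and KOAC10-5 lay among the WT embryos. The differences were 0.18 (SE 0.08, interval 0.00 to 0.36, adjusted p = 0.438 in limma) for Neurod1 and 0.34 (SE 0.13, interval 0.03 to 0.66, adjusted p = 0.405 in limma) for Neurod4. The exact permutation p was 0.0857 for both. The Neurod4 difference was 0.22 without KO KOAC8-6, and in the 3 embryos with little liver RNA it was -0.02. Neurod1 shares 5.71% of its 50-base stretches with the overlapping gene Cerkl, so that part of its value is uncertain, and none of the other 8 shares such a stretch with another gene. On the opposite strand Gm26755 overlaps Neurod1, as Fam241b does Neurog3 and Ptf1aos does Ptf1a, and the library kit does not mark strand.

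Neurod6 (chr6:55677822-55681263, 2 exons) is a late NeuroD factor, known from excitatory neurons of the cortex. It was measured at 0.256, 1.43 and 0.109 FPKM in KO embryos KOAC8-6, KOAC10-5 and KOAC10-8, and at 1.13, 3.75, 1.80 and 1.84 FPKM in WT embryos KOAC8-1, KOAC9-1, KOAC10-7 and KOAC10-2. The highest embryo held 34.4 times the lowest, which corresponds to an estimated 13.8 to 534 counts, and the WT embryos alone had a coefficient of variation of 53.0%. KOAC8-6 and KOAC10-8 lay under every WT embryo, and KOAC10-5 lay above the WT embryo KOAC8-1. The difference was -0.998 (SE 0.35, interval -1.82 to -0.18), with an adjusted p of 0.378 in limma and an exact permutation p = 0.0857. With a pseudocount of 0.1 in place of 1 it was -2.08. It was -0.76 within the KOAC8 embryos and -0.78 within the KOAC10 embryos, -1.43 in the 4 embryos with liver transcripts and -0.22 in the 3 nearly without them.

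Across the tested genes of the group, 0 of 8 had an adjusted p under 0.05 in limma, a rule that called 0.0373% of all genes, 6 of 16095. At an unadjusted p under 0.05, 2 were higher in KO embryos (Olig3 and Neurod4) and 1 lower (Neurod6), where 5.27% of all genes were higher and 6.19% lower. That count depended on the embryos: it became 5 higher when either KO KOAC10-5 or WT KOAC10-2 was left out, and 1 higher and none lower without KO KOAC8-6 or without KO KOAC10-8. Without WT KOAC8-1 or WT KOAC10-7 it was 1 higher and 1 lower. The counts over all genes moved too, from 849 higher and 997 lower of 16095 with all embryos. They were 1255 and 1375 of 16076 without KOAC10-5, and 734 and 867 of 16069 without KOAC10-2. Without KOAC8-6 they were 665 and 744 of 16097, and without KOAC10-8 533 and 722 of 16088. Without KOAC8-1 they were 791 and 895 of 16066, and without KOAC10-7 705 and 823 of 16092. One gene of the 8 had every KO embryo above every WT embryo, and none had every KO embryo below, a pattern found in 5.98% of all genes. The median difference was 0.32, beside 0.01 over all genes tested. Within the KOAC8 embryos and within the KOAC10 embryos, 8 of the 9 genes were higher in KO, as they were in the 4 embryos with liver transcripts, and Neurod6 was the exception each time. In the 3 embryos nearly without them 6 of 9 were higher. Of all genes tested, 8554 of 16095 were higher in KO embryos, and 8420 of 16046 in the 4 embryos with liver transcripts. No such share was computed within KOAC8, within KOAC10 or in the 3 embryos. The subsets share embryos and the genes share libraries, so these counts are not separate checks. The number KOAC9 was carried by 1 WT embryo alone and gives no KO minus WT difference.

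**Figure D2:**
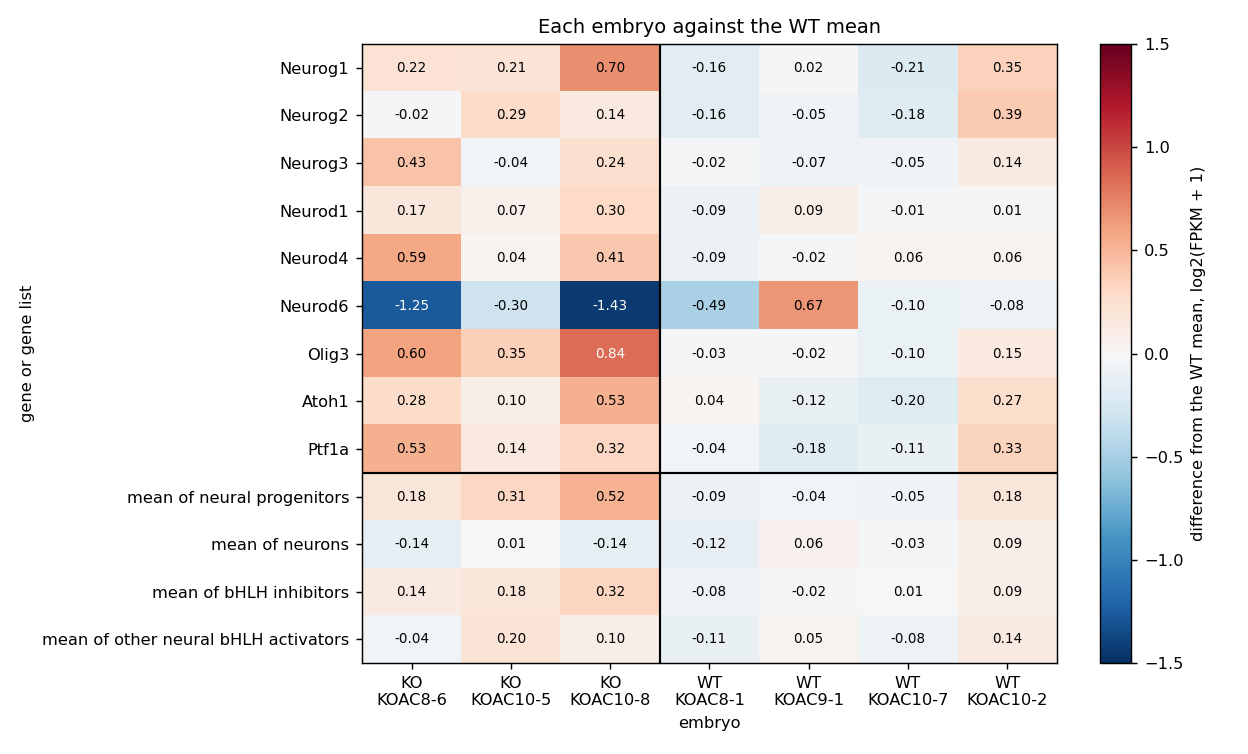
Difference of each embryo from the WT mean on the log2(FPKM + 1) scale, for the 9 genes (top) and for the mean of 4 gene lists (bottom), with KO embryos left of the vertical line. KOAC10-8 is positive for all genes but Neurod6, where it is at -1.43, and among WT embryos KOAC10-2 is positive for 8 of the 9.

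The embryos did not contribute alike. KO KOAC10-8 had the highest value of the 7 embryos for 4 of the genes and KO KOAC8-6 for 3 others, while KO KOAC10-5 was highest for none. The WT embryo KOAC10-7 had the lowest value for 4 genes. KOAC10-5 and the WT embryo KOAC10-2, which was highest for Neurog2, are both among the 3 with little liver RNA. Left without those 3, a choice made after seeing the data, the median difference over the 8 genes was 0.49. At an unadjusted p under 0.05, 5 were higher and 1 lower, and none had an adjusted p under 0.05 in limma. Over all 16046 genes tested in these 4 embryos, 739 were higher and 991 lower at the unadjusted limit. Of those 16046, 17 passed adjustment, and the median difference was 0.01.

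Progenitor markers were also higher in KO embryos. Of all genes tested, 5.27% were higher and 6.19% lower in KO embryos at an unadjusted p under 0.05, with a median difference of 0.01. Of 7 progenitor markers, 6 were higher at that limit, with a median difference of 0.38, and none passed adjustment. Without KO KOAC10-8 the count was 3 and the median 0.25. The count was 4 without KO KOAC10-5, WT KOAC8-1 or WT KOAC10-7. Over all genes, 849 of 16095 were higher with all embryos, 533 of 16088 without KOAC10-8 and 1255 of 16076 without KOAC10-5. Without KOAC8-1 it was 791 of 16066, and without KOAC10-7 705 of 16092. Sox2 (0.48) and Nes (0.25) were among those higher, and Fabp7 was at -0.02. Pax6 stood at 25.9, 31.7 and 34.3 FPKM in KO and at 21.1, 20.8, 19.5 and 23.8 FPKM in WT embryos. The summed level of the 7 ran from 696 to 791 FPKM in KO and from 624 to 709 FPKM in WT embryos, and none of them was at 0. The ratio of Olig3 to Pax6 was 0.284, 0.191 and 0.259 in KO embryos and 0.208 to 0.215 in WT embryos, so that KOAC10-5 had less Olig3 per Pax6 than any WT embryo and the other 2 KO embryos had more. With the mean log2 level of these 7 markers as a covariate, the difference was 0.32 for Olig3, -0.19 for Neurog1, -0.24 for Neurog2 and -0.05 for Atoh1, and none had an adjusted p under 0.05 in limma. The covariate differed between the groups itself, and its part in the results was not tested. Among markers of other tissues, 7 of 8 skeletal muscle genes, led by Acta1 (-1.36), Mylpf (-1.39) and Tnnc1 (-0.49), were lower in KO embryos at an unadjusted p under 0.05, with sums of 256 to 291 FPKM in KO and 383 to 503 FPKM in WT embryos, and 3 of 7 erythroid genes were lower, namely Hbb-bs (-2.60), Hbb-y (-0.57) and Hba-a1 (-0.86). None of the muscle and erythroid genes passed adjustment. Liver genes summed to 15.8 to 553 FPKM in KO and 6.35 to 821 FPKM in WT embryos, with 0 of 9 past that limit and the smallest p in Trf (1.09), Afp (1.38) and Ahsg (-0.33). Their part in the results was not tested either.

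**Figure D3:**
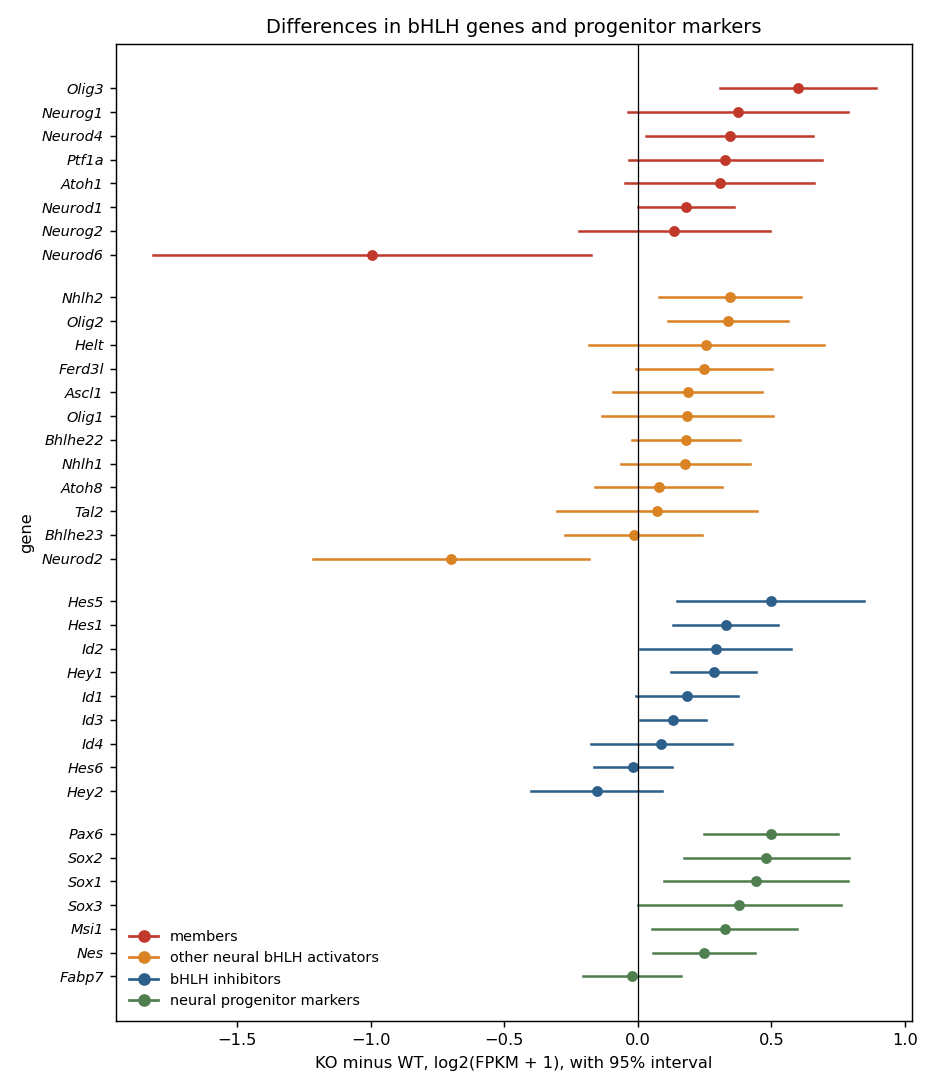
KO minus WT difference on the log2(FPKM + 1) scale with its 95% interval for each tested gene of 4 lists, members meaning the proneural genes described here. Neurog3, Atoh7 and Hes3 had means under 1 FPKM and are not drawn. Neurod6 and Neurod2 lie farthest to the left, and Olig3, Pax6 and Hes5 farthest to the right.

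Among 13 other neural bHLH activators, 12 could be tested and none passed adjustment. At an unadjusted p under 0.05, Olig2 (0.34), a factor of motor neuron progenitors, and Nhlh2 (0.34), of early neurons, were higher in KO embryos and Neurod2 (-0.70) was lower. The median of the list was 0.18, and without WT KOAC10-2 the count was 4 higher and none lower. Over all genes, 734 of 16069 were higher and 867 lower without that embryo. Neurod2, a close relative of Neurod6, followed the same embryos: it was at 0.300, 0.996 and 0.232 FPKM in KO and at 0.976, 2.13, 1.22 and 1.39 FPKM in WT embryos, lowest in KOAC10-8 and highest in KOAC9-1. Its adjusted p was 0.353 in limma. Of the cortical excitatory neuron genes, 6 of 7 could be tested, and the other 5 beside Neurod2 did not reach an unadjusted p of 0.05, with Bcl11b at -0.22 and Emx1 at -0.14 and a list median of -0.15. Neurod2 itself did not reach that limit without KOAC8-6 or KOAC10-8 and averaged under 1 FPKM without KOAC9-1 or KOAC10-2, and 2 genes of the list reached it without KOAC10-5.

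The E-proteins Tcf3, Tcf4 and Tcf12, the dimer partners, differed by 0.11, -0.03 and 0.08, and none reached an unadjusted p of 0.05. They were far more abundant than their partners, at 313 to 334 FPKM summed in KO and 292 to 312 FPKM in WT embryos, beside 51.1 to 58.6 and 39.5 to 53.8 FPKM for the 9 genes together.

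The inhibitors of bHLH activators, which are the Hes and Hey repressors and the Id proteins that take up E-proteins, included 5 of 9 tested genes higher in KO embryos at an unadjusted p under 0.05 and none lower. These were Hes5 (0.50), Hes1 (0.33), Id2 (0.29), Hey1 (0.28) and Id3 (0.13). Over all genes tested, 5.27% were higher and 6.19% lower at that limit. The KO embryos held 39.9, 41.8 and 49.4 FPKM of Hes1 and the WT embryos 31.9, 36.1, 35.9 and 34.1 FPKM, without overlap. Hes1 was not alone in this, since Id1, Id3, Hey1 and the untested Hes3 were also higher without overlap. Among all genes tested, 5.61% had a lowest KO value above the highest WT value. The adjusted p was 0.293 for Hes1 and 0.345 for Hes5 in limma, and 0 of 9 passed. The count was 3 without KO KOAC10-8, where the median went from 0.18 to 0.10, and 3 without WT KOAC8-1 or WT KOAC9-1 or with the KOAC number as a block. Over all genes those settings gave, in that order, 533 of 16088, 791 of 16066, 580 of 16070 and 650 of 16095 higher. With all embryos and no block it was 849 of 16095. Hes6, which counteracts Hes1, was at -0.02 and Hey2 at -0.15.

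Genes known to act downstream of proneural factors were divided, with 9 of 18 higher and 9 lower and a median of 0.00. The Notch ligands Dll3 (0.29) and Dll4 (0.30) and the neuronal zinc-finger factor St18 (0.40) were higher and the neuronal factor Ebf2 (-0.17) was lower in KO embryos at an unadjusted p under 0.05, and none passed adjustment. Dll3 stood at 14.9, 17.3 and 18.5 FPKM in KO and 12.5, 14.4, 12.6 and 14.8 FPKM in WT embryos. In Dll3 and Dll4 the KO and WT embryos did not overlap, though in Dll3 by little. St18 was likewise higher without overlap, and Ebf2 lower without overlap. Such a separation was found upward in 5.61% and downward in 5.98% of all genes tested. Dll1, another Notch ligand, overlapped, at 31.3 to 34.3 FPKM in KO and 24.9 to 33.7 FPKM in WT embryos. Without WT KOAC10-2 the count was 6 higher and 1 lower, and without KO KOAC10-5 it was 2 higher and 4 lower. Over all genes it was 734 higher and 867 lower of 16069 without KOAC10-2, and 1255 and 1375 of 16076 without KOAC10-5.

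Genes of the neurons that single factors specify had list medians near 0. For the Atoh1 lineage, 0 of 5 genes reached an unadjusted p of 0.05, with a median of 0.06 and the largest differences in Barhl1 (0.20) and Barhl2 (0.15), with Pou4f1 at 0.05. For the Ptf1a lineage it was 1 of 9, Tfap2a (0.25), with a median of 0.07, with Lhx1 at 0.18, Lhx5 at 0.15 and Lbx1 at -0.01. For the sensory ganglia downstream of Neurog1 and Neurog2, 0 of the 9 genes reported here reached it, with a median of -0.06, and Drgx was absent from the table. The largest difference there was that of Ntrk3, a neurotrophin receptor, at -0.62, with 14.1, 5.63 and 4.77 FPKM in KO and 7.53 to 14.7 FPKM in WT embryos and an adjusted p of 0.545 in limma. KOAC8-6 lay within the WT range and the other 2 KO embryos below it, while Eya1 was at 0.16 and Runx1 at -0.18. Leaving out KOAC10-2 changed the count of each of these 3 lists by 1 gene. Leaving out KOAC8-6 did so for the Atoh1 and sensory ganglia lists, and leaving out KOAC10-5 or KOAC10-8 for the Ptf1a list. Without any other embryo no count changed. The 4 tested pancreatic genes ran from -0.90 to 0.46, with a median of 0.18. At an unadjusted p under 0.05, Nkx6-1 (0.38) and Nkx2-2 (0.46), which ventral neural progenitors also make, were higher and the hormone gene Gcg (-0.90) was lower. Without KO KOAC10-8 the count was 0 higher and 1 lower, beside 533 higher and 722 lower of all 16088 genes. None of these lists held a gene with an adjusted p under 0.05. Of 14 pan-neuronal genes 0 reached an unadjusted p of 0.05, the smallest p belonging to Stmn3 (-0.21), Mapt (-0.33) and Syt1 (-0.21), with summed levels of 1037 to 1187 FPKM in KO and 1054 to 1270 FPKM in WT embryos. Without KO KOAC10-5, however, 5 of the 14 were lower and 1 higher at that limit and the median was -0.19, and without WT KOAC8-1 1 was lower. Over all genes, 1375 of 16076 were lower and 1255 higher without KOAC10-5, and 895 of 16066 were lower without KOAC8-1.

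Over the 7 embryos, the gene whose log2 level was most like that of Olig3 was Pax3, a dorsal neural tube factor, at a Pearson r of 0.992, followed by Ciz1 at 0.984 and Cnot11 at 0.982. For Neurod6 they were Cst3 at 0.998, Prss12 at 0.996 and Prkar1b at 0.996. The nearest gene was Mettl5 for Neurog1 (0.976), Foxd2 for Neurog2 (0.978), Zkscan17 for Neurod1 (0.993), Rbbp6 for Neurod4 (0.987), Kif21a for Atoh1 (0.982) and Rasl11a for Ptf1a (0.988). The genes in the second and the third place were Rfx1 and Th for Neurog1, 9130604C24Rik and Ube2t for Neurog2, Prtn3 and Mmrn2 for Neurod1, Frmd4b and Ppp4r2 for Neurod4, C530008M17Rik and Pkp2 for Atoh1, and Ado and Unk for Ptf1a, with r between 0.963 and 0.982. These are the highest of 16095 values over only 7 points, which share libraries, depth and tissue makeup, and they are given as a description.

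**Figure D4:**
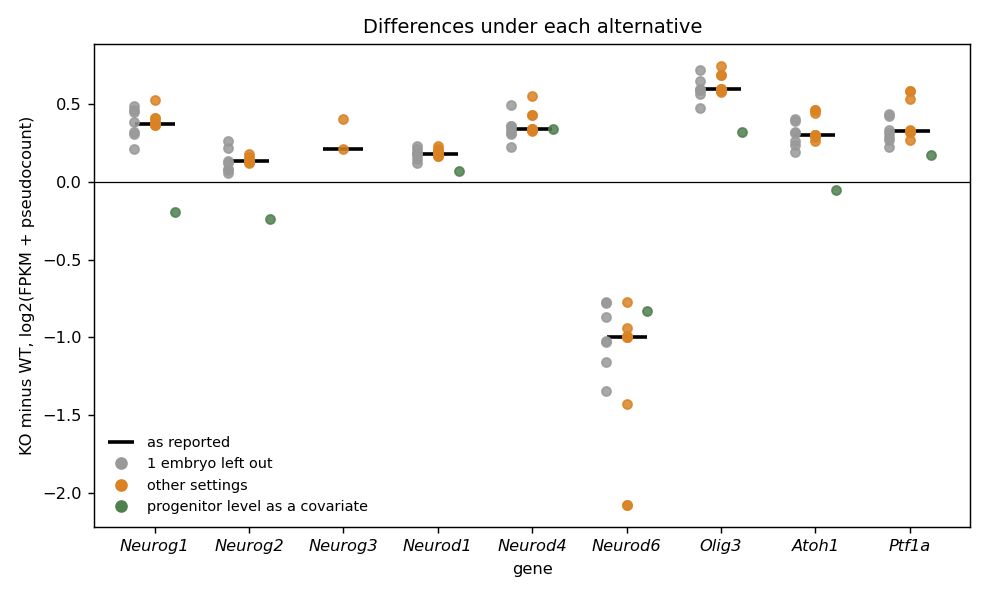
KO minus WT difference of each of the 9 genes as reported (black bar) and under each alternative (points) on the log2 scale, grey for 1 embryo left out, green for the progenitor level as a covariate and orange for the other settings. Olig3 stays between 0.32 and 0.75 and Neurod6 between -2.08 and -0.78, while Neurog1, Neurog2 and Atoh1 fall below 0 with the covariate.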

How the data were processed

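Whole E11.5 embryos were sequenced from TruSeq RNA v2 libraries, 3 KO and 4 WT, and genotypes came from the sample labels. The authors deposited 1 FPKM value per gene and embryo, and 0 of these columns were left unmapped. Their submission names Salmon, DESeq2, MultiQC and GRCm38, without roles or versions. The deposited table also holds a mean signal per gene, the authors' mean of normalized counts over all embryos, and the columns of the authors' own KO and WT comparison (log2 fold change, its standard error, test statistic and p-values), which were not used.

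Genes averaging 1 FPKM or more over the 7 embryos were compared on the log2(FPKM + 1) scale with limma 3.58.1 in R 4.3.3 (eBayes with a trend, no covariate), and p-values were adjusted by Benjamini-Hochberg over all 16095. FPKM allowed no count test. Embryos of a group were separate animals. Single genes were also compared by exact permutation. Depth was estimated from the steps between low FPKM values and the authors' mean signal, and covers counting only. In simulated data for KO against WT with 16095 genes, 163 of 200 genes changed by a log2 fold of 1 were recovered with 8 false calls, and 193 of 200 at a log2 fold of 2 with 14. The noise was normal and drawn for each gene separately, without the differences in liver RNA that many genes share. These rates therefore need not hold for the real embryos, in which 6 of 16095 genes were called.

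The genes named are the 9 proneural genes, Slmap, the 3 genes of smallest p per related or marker list, list genes absent from the table and the 3 genes most alike per tested gene. Other list members were named after their values were seen. In the sensory ganglia list, 1 gene is not reported here and is left out of that list's counts. Members and lists were chosen with earlier results of these data known. Alternatives were other pseudocounts, filters and scalings, a robust fit, the KOAC number as a block, Afp or progenitor level as a covariate, and leaving out embryos. Positions are from GENCODE M21 on GRCm38 and promoters from RefSeq.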

Additional observations from a re-analysis of the deposited data

Results flagged for a closer look

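Of 51 genes examined, 0 of the 9 proneural genes and 1 other had 1 of the 4 WT embryos far from the rest. Chance alone sets apart about 1 group in 20. For Nkx6-1, a progenitor factor of the ventral neural tube, KOAC10-2 at 5.83 FPKM stood apart from the next WT embryo by 0.863 of the WT range.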

How the results depend on the processing

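No proneural gene had an adjusted p under 0.05 under any of the 18 alternatives, of which 7 left out 1 embryo each. Of 142 differences recomputed for the 9 genes, 139 kept their direction. The robust fit and a change of filter alone cannot move a difference, so those agreements were fixed in advance. The 3 that reversed did so with the progenitor level as a covariate, an alternative chosen after seeing the data, at -0.19 for Neurog1, -0.24 for Neurog2 and -0.052 for Atoh1. The cause was not tested. The number of all genes past the threshold, 6 as reported, was 10 with a minimum mean of 0.1 FPKM and a pseudocount of 0.1, 10 with Afp as a covariate, 2 with the progenitor covariate and 17 without the 3 embryos low in liver transcripts, the latter also chosen after seeing the data. It ran from 7 to 12 when 1 embryo was left out, the highest without WT KOAC8-1. The median difference of the tested proneural genes ran from 0.01 with the progenitor covariate to 0.49 without the 3 embryos. Neurog3, under the filter, was at 0.41 with the lower filter and pseudocount. The labels number no replicates across the groups. With the KOAC number as a block, every tested proneural gene kept its direction and 1 was higher and 1 lower at an unadjusted p under 0.05. Over all 16095 genes, 650 were higher and 748 lower at that limit. KOAC8 and KOAC10 were carried by embryos of both groups, but KOAC9 by 1 WT embryo alone. The block therefore gave the same differences as leaving out WT KOAC9-1 and is not a separate check of them. Depth was known only as an estimate, and the lowest Neurod6 value rested on about 13.8 counts.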
